A study of Mus musculus with 12 samples.

Results

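Insr, Irs1, Irs2, Pik3r1, Akt1, Akt2, Foxo1, Foxo3, Igfbp1 and Igfbp2 carry the insulin signal from the liver cell surface to FOXO transcription factors and to binding proteins that the liver secretes. They were chosen by gene symbol, with earlier results of these data known, and all 10 were found among the 23420 gene symbols measured. Liver RNA was counted with the Lexogen QuantSeq 3′ mRNA kit, which reads 1 fragment near the 3′ end of each transcript, in 12 mice at ZT10, that is 10 hours after lights on. The 4 groups of 3 mice were wild type females (WTF), Siah2 KO females (KOF), wild type males (WTM) and Siah2 KO males (KOM). KO mice were Siah2-/-, lacking a ubiquitin ligase that marks proteins for degradation, and wild type mice carried no engineered allele. All were on a C57BL/6 background, about 20 weeks old, and had normal chow and water at all times under a light-dark cycle. The wild type and Siah2-/- mice came from related homozygous lines founded by an intercross of heterozygotes, so the deletion and other differences between the lines cannot be told apart. The labels describe RNA pooled from 3 mice, whereas the paper describes individual livers for this experiment. Each deposited column bears the number of 1 mouse and was treated as 1 mouse. The question was whether loss of Siah2 altered these genes in the liver of either sex.

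Insulin binds its receptor on the hepatocyte, a tyrosine kinase that phosphorylates the docking proteins IRS1 and IRS2. These recruit phosphoinositide 3-kinase (PI3K), the lipid it makes brings AKT to the membrane, and active AKT phosphorylates FOXO1 and FOXO3, which then leave the nucleus. Genes that FOXO factors switch on in the fasted liver, such as Igfbp1, Irs2 and those of glucose production, fall after feeding. Much of this control acts on proteins and was not measured here.

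Of the 10 genes, 9 had a promoter sequence in RefSeq (GRCm38.p6), and Insr had none in the table. The 250 bases before each start site were searched on both strands for CAAAACA, which reads TGTTTTG from the other strand, the core of the insulin response sequence through which FOXO factors act on Igfbp1. This heptamer was in 3 of the 9 promoter sets, those of Igfbp1, Irs1 and Irs2, and in 6.38% of the 27025 genes with a promoter in the table. A second FOXO and forkhead heptamer, GTAAACA, which reads TGTTTAC from the other strand, was in 1 of the 9, that of Akt1, and in 3.54% of all genes. A match describes the letters only. The Igfbp1 stretch is printed whole, since Igfbp1 was the member that differed between groups past the threshold, and the other matches are printed with 15 bases on each side. Capitals mark the heptamer in each. All are written 5′ to 3′ on the strand of the gene.
Igfbp1, chr11:7197537-7197786, plus strand, heptamer starting 108 bases upstream of the start site: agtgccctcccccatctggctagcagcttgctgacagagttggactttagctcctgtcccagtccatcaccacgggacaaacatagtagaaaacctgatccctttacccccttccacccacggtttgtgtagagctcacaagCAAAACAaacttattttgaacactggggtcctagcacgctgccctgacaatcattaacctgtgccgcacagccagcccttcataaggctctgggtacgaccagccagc
Irs1, chr1:82291529-82291565, minus strand, 111 bases upstream: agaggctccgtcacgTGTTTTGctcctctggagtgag
Irs1, chr1:82291450-82291486, minus strand, 32 bases upstream: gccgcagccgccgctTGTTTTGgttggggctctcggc
Irs2, chr8:11008945-11008981, minus strand, 37 bases upstream: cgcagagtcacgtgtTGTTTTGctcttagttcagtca
Akt1, chr12:112675024-112675060, minus strand, 161 bases upstream: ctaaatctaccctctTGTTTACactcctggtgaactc

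Each mouse gave 1293688 to 4056144 counts on genes (median 2670267.5). Levels are given in CPM, the count divided by the TMM-scaled library total of the mouse and multiplied by 1000000, a scale on which 1 count was worth 0.246 to 0.765 CPM. Because 1 fragment is read per transcript whatever its length, CPM was not divided by transcript length. Ratios between genes are ratios of counted fragments. Whether the 3′ end of every gene was counted equally well was not tested. The library of WTF mouse 1091 stood apart, with a correlation across genes on log2(CPM + 1) of 0.915 to 0.917 with its group mates, against 0.969 between those mates and 0.948 to 0.973 in the other groups. Siah2 itself was counted in every group, at 13.6 ± 2.96 CPM in WTF, 10.7 ± 1.57 in KOF, 21.8 ± 5.18 in WTM and 13.9 ± 4.08 in KOM (SD, n = 3 each). Whether its 3′ tags lie inside the deleted part was not determined, and these counts therefore check nothing. Xist was at 66.2 to 113 CPM in the 6 females and at most 0.868 in the 6 males, as labelled. All 7 hepatocyte markers were counted, with a summed level of 25311 to 39609 CPM. The 8 Kupffer cell markers summed to 384 to 528 CPM in WTF, 305 to 745 in KOF, 71.2 to 542 in WTM and 93.4 to 195 in KOM, and the 8 stellate cell markers to 361 to 480 CPM, 279 to 353 CPM, 232 to 352 CPM and 253 to 309 CPM in the same order. Endothelial markers summed to 178 to 333 CPM and bile duct markers to 9.87 to 56.3 CPM. Fat cell markers summed to 47.8 to 127 CPM with Plin1 and Retn never counted, and pancreatic markers to 0 to 1.8 CPM. Of the red blood cell list only Alas2 was counted, at 8.47 to 25.2 CPM in females and 83.9 to 154 CPM in males, while the 4 globin genes never were. In whole liver, fewer cells of a type and less RNA per cell cannot be told apart.

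The levels of the 10 genes spanned a wide range. Averaged over the 12 mice, Igfbp2 was at 713 CPM, Akt2 at 181, Insr at 129, Foxo1 at 93.7, Igfbp1 at 83.7, Irs1 at 76.1, Pik3r1 at 62.0, Akt1 at 27.9, Irs2 at 2.59 and Foxo3 at 0.574 CPM. Igfbp2 lay above Akt2 in every mouse (lowest 483 against highest 406 CPM over all mice), and Pik3r1 (lowest 38.2) above Akt1 (highest 35.0). Akt1 (lowest 14.5) in turn lay above Irs2 (highest 7.2). The ranges of neighbours from Akt2 down to Pik3r1 overlapped, as did those of Irs2 and Foxo3, so their order is not separated by the spread between mice. Of the pairs that share a role, Akt2 had 4.2 to 14.2 times the counts of Akt1 in the same mouse (median 5.65). Igfbp2 had 3.98 to 23.2 times those of Igfbp1 (median 9.57), and Irs1 had 6.88 to 112 times those of Irs2 in the 11 mice with an Irs2 count (median 34.9). Summed over the mice, Foxo1 had 173 times the counts of Foxo3.

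**Figure D1:**
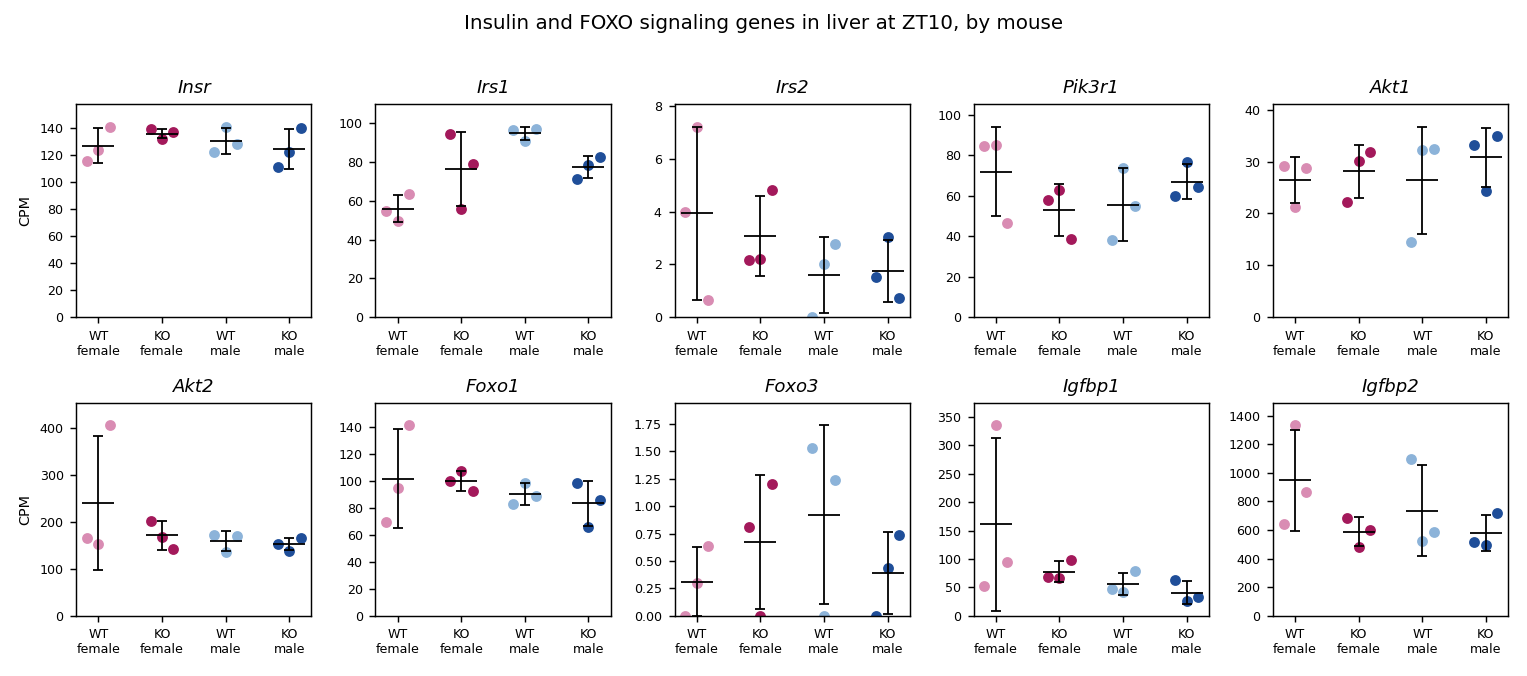
Level in CPM of each of the 10 genes in every mouse (points), with the group mean and SD (bars), in WT and KO females and WT and KO males, each panel on its own linear axis from 0. Insr kept between 111 and 141 CPM in all 12 mice, whereas Igfbp1 reached 335 CPM in WTF mouse 1090 and Akt2 406 CPM in WTF mouse 1091.

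Insr (chr8:3150922-3279649), the insulin receptor, had the narrowest range of the members. It was at 116, 124 and 141 CPM in WTF, 139, 132 and 137 CPM in KOF, 122, 141 and 128 CPM in WTM and 111, 122 and 140.2 CPM in KOM. The 4 groups overlapped, and the highest mouse was 1.27 times the lowest. Of the 9806 genes tested in all 12 mice, 0.0714% had a narrower range.

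Irs1 (chr1:82233105-82291439), the docking protein that couples the receptor to PI3K, was at 54.9, 49.5 and 63.4 CPM in WTF and 94.2, 56.0 and 78.9 CPM in KOF. In males it was at 96.3, 91.0 and 97.2 CPM in WTM and 71.2, 78.6 and 82.6 CPM in KOM. All WTM mice were above all KOM mice and all WTF mice, and 1 of the 3 KOF mice was within the WTF range. Irs2 (chr8:10984681-11008929), the second docking protein and itself a FOXO target, gave only 0 to 24 counts per mouse. Its levels were 3.97, 7.2 and 0.637 CPM in WTF, 2.16, 2.21 and 4.82 in KOF, 0, 2.01 and 2.79 in WTM and 1.51, 3.04 and 0.739 CPM in KOM. With so few counts no group stood out, and Irs2 passed the filter on low counts only in the comparison of KOF with WTF and in that of the sexes' responses. The mouse with 0 counts was the shallowest, in which 3 counts would be 2.29 CPM. Pik3r1 (chr13:101680761-101768217), the main regulatory subunit of PI3K, was at 84.5, 85.2 and 46.5 CPM in WTF, 57.9, 63.0 and 38.5 in KOF, 38.2, 73.9 and 55.1 in WTM and 59.9, 76.8 and 64.6 CPM in KOM. Its 4 groups overlapped, with WTF mouse 1091 far below its group mates.

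Akt1 (chr12:112653821-112674884) and Akt2 (chr7:27591552-27640826) encode the kinases that phosphorylate FOXO factors, AKT2 being the main form in insulin-responsive tissues. Akt1 was at 29.2, 21.3 and 28.7 CPM in WTF, 22.2, 30.2 and 31.9 in KOF, 14.5, 32.2 and 32.5 in WTM and 33.2, 24.3 and 35.0 CPM in KOM. Akt2 was at 166, 152 and 406 CPM in WTF, 203, 169 and 142 in KOF, 172, 135 and 171 in WTM and 154, 139 and 166 CPM in KOM. The groups overlapped for both, and the Akt2 value of 406 CPM came from WTF mouse 1091. Foxo1 (chr3:52268337-52350109), the main FOXO factor of the hepatocyte, was at 69.3, 94.5 and 141 CPM in WTF, 99.8, 107 and 92.1 in KOF, 82.6, 98.5 and 88.8 in WTM and 98.4, 65.5 and 85.8 CPM in KOM. Here too the highest value was that of WTF mouse 1091, and the groups overlapped. Foxo3 (chr10:42181845-42276695), a second FOXO factor, gave 0 to 4 counts per mouse and was at or below 1.53 CPM, too low for a test in any comparison.

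Igfbp1 (chr11:7197787-7202546), a secreted binding protein for insulin-like growth factors (IGF) and the classical insulin-repressed FOXO target of the liver, varied more than any other tested member apart from Irs2. It was at 52.3, 335 and 95.2 CPM in WTF and 68.2, 65.9 and 98.7 CPM in KOF, and at 47.4, 42.7 and 78.0 CPM in WTM and 63.3, 25.2 and 32.8 CPM in KOM. The highest mouse had 13.3 times the level of the lowest, and 93.3% of the tested genes had a narrower range. Every KOF mouse was above every KOM mouse, while wild type females and males overlapped. Igfbp2 (chr1:72824480-72852474), another secreted IGF-binding protein, was at 643, 1332 and 868 CPM in WTF, 683, 483 and 602 in KOF, 1100.2, 526 and 583 in WTM and 518, 496 and 720.1 CPM in KOM. WTF mouse 1090 was the highest for both genes, and the groups overlapped for Igfbp2 in every comparison.

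In females, loss of Siah2 was not followed by a difference past the threshold in any of the 9 members tested (edgeR quasi-likelihood test, adjusted p under 0.05 over 9465 genes). The same test called 0.0% of all genes in this comparison, and 15.6% were at an unadjusted p under 0.05, as was 1 of the 9 members. That member was Igfbp2, at 589.6 ± 100.4 CPM in KOF against 948 ± 352 in WTF (SD, n = 3 each), a log2 fold change of -0.70 (SE 0.30) with adjusted p = 0.300 by edgeR. Without WTF mouse 1090 the value was -0.38, with adjusted p = 0.610 and an unadjusted p over the threshold. DESeq2, which called 3.6% of genes and put 8.06% at an unadjusted p under 0.05, called no member and put 2 there, Igfbp2 and Igfbp1. With limma-voom, which called 0.0% of genes, no member was called. For no member did the 2 groups of females fail to overlap, against 23.3% of all genes tested. The signs were mixed, with 3 of 9 members higher in KOF, against 47.3% of all genes tested, and a median log2 fold change of -0.44, against -0.03 over all genes. Igfbp1 had a log2 fold change of -1.07 (SE 0.56, edgeR adjusted p = 0.398), which was 0.05 without WTF mouse 1090. The log2 fold change of Akt2 was -0.50 (SE 0.37, adjusted p = 0.565) and became 0.11 without WTF mouse 1091. Irs1 gave 0.44 (SE 0.25, adjusted p = 0.447), 0.55 without that mouse and 0.35 without WTF mouse 1090. For Pik3r1 the values were -0.44 (SE 0.30, adjusted p = 0.523), -0.66 without WTF mouse 1091 and -0.31 without WTF mouse 1090. Insr (0.09, SE 0.21), Akt1 (0.07, SE 0.26), Foxo1 (-0.04, SE 0.28) and Irs2 (-0.47, SE 0.73) had log2 fold changes smaller than their standard errors. These errors leave room for changes of either sign, so a missed threshold does not show equal levels. Of the marker lists, stellate (361 to 480 CPM in WTF, 279 to 353 in KOF), endothelial (255 to 333 and 233 to 246 CPM) and fat cell (47.8 to 55.2 and 58.4 to 110.4 CPM) sums and Alas2 (20.1 to 25.2 and 8.47 to 19.3 CPM) did not overlap between these groups, and their part in the values was not tested. Sequencing indices were 34 to 36 in WTF and 37 to 39 in KOF, so genotype and index order cannot be told apart.

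In males, too, no member passed the threshold (0 of 8 tested, against 0.0% of 8823 genes by edgeR), and 0 of 8 were at an unadjusted p under 0.05, as were 4.05% of all genes. DESeq2, which called 0.037% of genes, and limma-voom, which called 0.0%, also called none of the members. Irs1 was the member whose groups did not overlap, as was the case for 8.87% of all genes tested. It was at 77.5 ± 5.74 CPM in KOM and 94.8 ± 3.36 in WTM (SD, n = 3 each), a log2 fold change of -0.30 (SE 0.16) with unadjusted p = 0.0804 and adjusted p = 1.0 by edgeR. The other 7 had log2 fold changes from -0.51 (Igfbp1, SE 0.31) to 0.24 (Pik3r1, SE 0.22). The median over the 8 was -0.10. Bile duct markers summed to 47.4 to 56.3 CPM in WTM and 28.2 to 36.5 CPM in KOM, without overlap, and their part in these values was not tested. Genotype and the order of the sequencing indices (46 to 48 in WTM, 49 to 51 in KOM) cannot be told apart here either.

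The female change minus the male change was tested directly in the 12 mice together. None of the 9 members tested passed the threshold, against 0.255% of 9806 genes, and 1 of the 9 was at an unadjusted p under 0.05, against 14.1% of genes. It was Irs1, whose mean was 76.3 ± 19.2 CPM in KOF and 55.9 ± 6.99 in WTF but 77.5 ± 5.74 in KOM and 94.8 ± 3.36 in WTM (SD, n = 3 each). The difference was 0.74 on the log2 scale (SE 0.29), with an adjusted p of 0.252 in edgeR and 0.198 in DESeq2, and was 0.85 with adjusted p = 0.0819 by edgeR without WTF mouse 1091. It was 0.62 with adjusted p = 0.402 by edgeR without WTF mouse 1090. Of the 12 edgeR fits that left out 1 mouse, 0 called Irs1. For Igfbp1 the difference was -0.57 (SE 0.73) and for Igfbp2 -0.34 (SE 0.43), each smaller than its standard error. DESeq2, which called 3.46% of genes, and limma-voom, which called 0.286%, called no member.

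**Figure D2:**
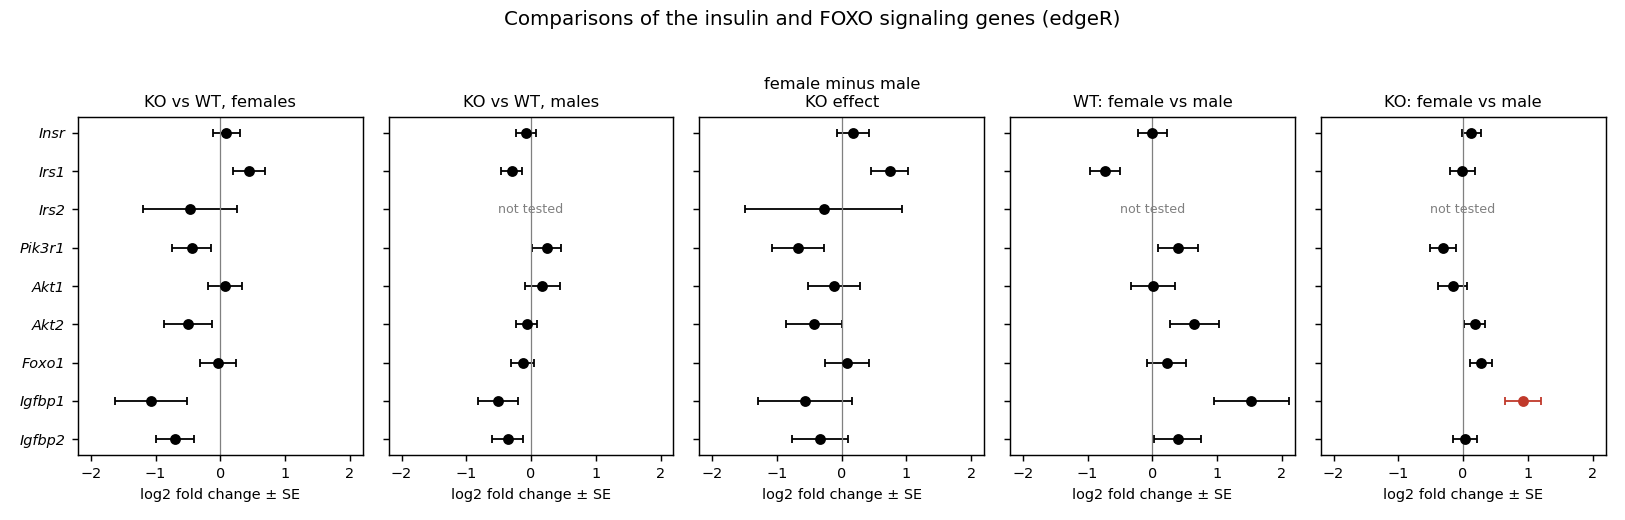
Log2 fold change of each tested member in the 5 comparisons (points) with its standard error (bars) from the edgeR fit; the vertical line marks 0. Igfbp1 between KO females and KO males, at 0.93, was the value that passed the threshold (red), and Irs1 lay at -0.73 between wild type females and wild type males and at -0.01 between KO females and KO males.

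Wild type females and wild type males were compared across the 2 deposited tables, so that sex, table and the order of the sequencing indices (34 to 36 in WTF, 46 to 48 in WTM) cannot be told apart. No member passed the threshold (0 of 8, against 1.39% of 9335 genes by edgeR, 3.68% by DESeq2 and 1.16% by limma-voom), and 2 of 8 were at an unadjusted p under 0.05, against 15.2% of genes. For Irs1 the female level minus the male level was -0.73 on the log2 scale (SE 0.23, unadjusted p = 0.00921, adjusted p = 0.169 by edgeR). Its groups did not overlap, as was the case for 22.7% of genes, and without WTF mouse 1091 the value was -0.86 with adjusted p = 0.0189 by edgeR. Without WTF mouse 1090 the Irs1 value was -0.63 with adjusted p = 0.343 by edgeR. Of the 6 edgeR fits that left out 1 mouse, 1 called Irs1. Igfbp1, at 161 ± 152 CPM in WTF and 56.0 ± 19.2 in WTM (SD, n = 3 each), had a log2 fold change of 1.53 (SE 0.58, adjusted p = 0.241 by edgeR). Without WTF mouse 1090 it was 0.45. Stellate (361 to 480 CPM in WTF, 232 to 352 in WTM), endothelial (255 to 333 and 193 to 239 CPM) and bile duct (9.87 to 45.5 and 47.4 to 56.3 CPM) marker sums and Alas2 (20.1 to 25.2 and 83.9 to 105 CPM) did not overlap between these groups, and their part in these values was not tested.

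KO females and KO males were also compared across the 2 deposited tables. Sex, table and the order of the sequencing indices (37 to 39 in KOF, 49 to 51 in KOM) cannot be told apart. Between the sexes of the KO mice, Igfbp1 was higher in females and was the only member called (1 of 8 by each tool, against 11.5% of 9102 genes by edgeR, 10.1% by DESeq2 and 12% by limma-voom). It was at 77.6 ± 18.3 CPM in KOF and 40.4 ± 20.2 in KOM (SD, n = 3 each), 1.91-fold higher, with a log2 fold change of 0.93 (SE 0.28). The adjusted p was 0.0423 with edgeR, 0.0268 with DESeq2 and 0.0243 with limma-voom. The 3 KOF mice, at 65.9 to 98.7 CPM, did not overlap the 3 KOM mice, at 25.2 to 63.3 CPM, as was the case for 30.7% of genes, and 26.1% were at an unadjusted p under 0.05. The call was not stable to single mice. Leaving out 1 mouse at a time, the log2 fold change was 0.70 to 1.39 and edgeR's adjusted p 0.00407 to 0.181, and edgeR still called Igfbp1 in 1 of the 6 fits, that without KOM mouse 1075. When all 12 mice shared 1 estimate of the spread, adjusted p was 0.366. The share of members called was close to that of all genes, and the sex difference of Igfbp1 in wild type mice, 1.53, was not shown to differ from that in KO mice, since the difference between the sexes' responses, -0.57, had an SE of 0.73. Irs1 had a log2 fold change of -0.01 (SE 0.19) between the KO sexes, Insr 0.13 (SE 0.15), Foxo1 0.27 (SE 0.17), Akt2 0.18 (SE 0.16), Akt1 -0.16 (SE 0.22), Igfbp2 0.03 (SE 0.18) and Pik3r1 -0.31 (SE 0.20). The Kupffer marker sum (305 to 745 CPM in KOF, 93.4 to 195 in KOM), the endothelial sum (233 to 246 and 178 to 204 CPM) and Alas2 (8.47 to 19.3 and 103 to 154 CPM) did not overlap between these groups, while the hepatocyte sum did (29002 to 38059 and 25311 to 29888 CPM). Their part in the Igfbp1 difference was not tested.

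The rest of the pathway was followed in 6 lists of 122 other genes: receptor-proximal signaling, PI3K with PDK1 and lipid phosphatases, AKT with TSC, mTOR and GSK3, FOXO factors with cofactors and targets, the IGF axis, and liver genes raised by insulin. In females, 0 of the 103 tested were called by edgeR and 18 were at an unadjusted p under 0.05 (10 higher and 8 lower in KOF, against 691 and 787 of all genes), 17.5% against 15.6% of all genes. By list, these were 2 of 12, 2 of 12, 5 of 23, 5 of 31, 1 of 11 and 3 of 14 in the order above. All 5 in the AKT list were lower in KOF and all 3 insulin-raised genes were higher. The list medians were -0.10, 0.20, -0.22, -0.02, 0.10 and 0.13 on the log2 scale, and that of all genes -0.03.

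Sesn1, which encodes a stress-induced sestrin that restrains mTOR and is a FOXO target, had the smallest p in females. It was at 11.6, 11.4 and 9.24 CPM in WTF and 29.8, 24.7 and 22.9 CPM in KOF, a log2 fold change of 1.26 (SE 0.27) with adjusted p = 0.0962 by edgeR and 0.0232 by DESeq2. All KOF mice were above all WTF mice. Pdpk1, the PDK1 kinase that activates AKT, was at 45.5, 55.5 and 20.7 CPM in WTF and 81.7, 91.0 and 121 CPM in KOF, with adjusted p = 0.138 by edgeR and 0.024 by DESeq2. Mlst8, a subunit of both mTOR complexes, was at 10.2 ± 0.977 CPM in WTF and 3.81 ± 1.22 in KOF (adjusted p = 0.128 by edgeR). Gsk3a, a kinase that AKT inhibits, was at 17.3 ± 3.0 and 8.36 ± 1.4 CPM (adjusted p = 0.141), and Ceacam1, which promotes insulin clearance, at 30.1 ± 10.7 and 13.7 ± 3.5 CPM (adjusted p = 0.160; SD, n = 3 each). These groups did not overlap for any of the 5, as was the case for 24.3% of the pathway genes and 23.3% of all genes tested. The 5 were picked by their small p in this same comparison. DESeq2 called 4 of the pathway genes, among them Sesn1, Pdpk1 and Pck1, of which the last lies outside the rule for named genes in this comparison. Pck1, a glucose production enzyme that FOXO1 raises, had a log2 fold change of 1.59 (SE 0.51, adjusted p = 0.190 by edgeR). Without WTF mouse 1091, edgeR called 10 of the pathway genes, among 936 genes in all, and still 0 members. Calls thus rose over all genes, and without the numbers tested in that fit the 10 do not set the pathway apart. The edgeR adjusted p without that mouse was 0.017 for Sesn1, 0.0255 for Pdpk1, 0.044 for Mlst8, 0.0286 for Gsk3a and 0.00833 for Ceacam1. Pck1 then had a log2 fold change of 1.25 with adjusted p = 0.0702, and DESeq2 no longer called it (adjusted p = 0.183). Leaving out WTF mouse 1090 instead, edgeR's adjusted p was 0.162 for Sesn1, 0.157 for Pdpk1, 0.226 for Mlst8, 0.226 for Gsk3a and 0.289 for Ceacam1. Each of these 5 genes was called in 1 of the 6 edgeR fits that left out 1 mouse.

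**Figure D3:**
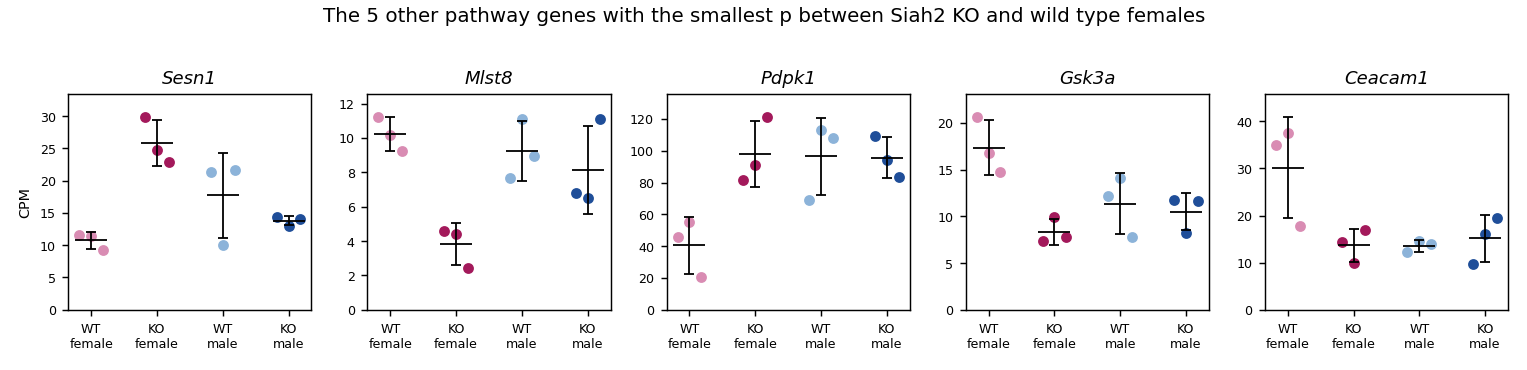
Level in CPM of Sesn1, Mlst8, Pdpk1, Gsk3a and Ceacam1 in every mouse (points) with group mean and SD (bars), each panel on its own linear axis from 0. In females the KO mice lay apart from the wild type mice for all 5, Sesn1 at 22.9 to 29.8 against 9.24 to 11.6 CPM, whereas in males the genotypes overlapped. The 5 genes were picked by their small p in females. Of the pathway genes tested, 24.3% did not overlap in females and 8.74% in males.

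In males, 0 of 103 pathway genes were called by edgeR or DESeq2, and 9 were at an unadjusted p under 0.05, 8.74% against 4.05% of all genes. Of these 1 was higher and 8 were lower in KOM, against 143 higher and 214 lower of all genes at that p. By list, the 9 were 1 of 12, 1 of 11, 0 of 23, 5 of 32, 0 of 11 and 2 of 14, in the order used for females. The 5 in the FOXO list, the largest list, were all lower in KOM. Among the smallest p values were those of Ppargc1a, a coactivator of glucose production genes (33.5 ± 4.01 CPM in KOM and 52.6 ± 7.2 in WTM, log2 fold change -0.67), Gadd45a, a FOXO-responsive stress gene (4.2 ± 1.19 and 9.63 ± 2.69 CPM, -1.20), Sirt1, a deacetylase of FOXO factors (6.18 ± 0.907 and 10.8 ± 1.26 CPM, -0.84), and Inpp5k, an inositol phosphatase that dampens PI3K signaling (2.64 ± 1.64 and 6.42 ± 1.43 CPM, -1.25; SD, n = 3 each). Each had adjusted p = 1.0 by edgeR. DESeq2 put 5 pathway genes at an unadjusted p under 0.05, and 245 of all genes. Its unadjusted p was 0.0711 for Inpp5k and 0.0882 for Sirt1. Inpp5k gave few counts, 2 to 15 per mouse in KOM and 7 to 19 in WTM.

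When the sexes' responses were set against each other, edgeR called 0 of 105 pathway genes, DESeq2 called 2, and 19 were at an unadjusted p under 0.05 (18.1% against 14.1% of all genes). The 2 were Sesn1, with a difference of 1.63 on the log2 scale (SE 0.40), and Gadd45a, with 3.13 (SE 0.82). Adjusted p was 0.0922 for Sesn1 and 0.107 for Gadd45a with edgeR, and 0.0219 and 0.0224 with DESeq2. Gadd45a was at 5.41, 4.5 and 0.319 CPM in WTF and 21.6, 9.57 and 6.62 in KOF, but at 7.65, 8.55 and 12.7 CPM in WTM and 4.15, 3.04 and 5.42 in KOM. The KO mice were above the wild type mice in females and below them in males. Genotypes did not overlap for 23.3% of all genes in females and 8.87% in males. Gadd45a gave few counts: 1 to 15 per mouse in WTF, the 1 in mouse 1091, 11 to 80 in KOF, 10 to 41 in WTM and 7 to 22 in KOM. The next were Gabarapl1, an autophagy gene under FOXO control (-1.04, SE 0.33), and Pdpk1 (1.29, SE 0.42), with adjusted p of 0.167 and 0.173 by edgeR. Without WTF mouse 1091, Sesn1 had adjusted p = 0.0356 and Gadd45a 0.0276 by edgeR. Each was called in 1 of the 12 edgeR fits that left out 1 mouse, with adjusted p up to 0.269 for Sesn1 and 0.298 for Gadd45a.

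Between wild type females and males, edgeR called 0 of 102 pathway genes and DESeq2 called 2, among them Pdpk1, with 13 at an unadjusted p under 0.05 by edgeR (12.7% against 15.2%). Ceacam1 (1.16, SE 0.33), Pdpk1 (-1.24, SE 0.35) and Tsc1, a brake on mTOR (-0.69, SE 0.22), were among the genes with the smallest p, with edgeR adjusted p of 0.132, 0.139 and 0.175. This comparison and that of the females share the 3 WTF mice. For Pdpk1 the group means were 40.6 ± 17.9 CPM in WTF, 97.9 ± 20.5 in KOF, 96.6 ± 24.1 in WTM and 95.4 ± 12.7 in KOM, and for Ceacam1 30.1 ± 10.7, 13.7 ± 3.5, 13.6 ± 1.21 and 15.1 ± 4.9 CPM (SD, n = 3 each). For both genes WTF was the group whose mean stood away from the other 3. The genes were named for their small p in both comparisons, so this pattern follows from that choice. WTF mouse 1091 had the lowest WTF value for each, 20.7 CPM for Pdpk1 and 17.8 CPM for Ceacam1.

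Between KO females and KO males, edgeR called 15 of 103 pathway genes, 7 higher and 8 lower in females, 14.6% against 11.5% of all genes, and DESeq2 called 11. The insulin-raised list had 4 of 14 called, the FOXO list 7 of 32, the AKT list 2 of 23, the receptor-proximal list 1 of 12, the IGF list 1 of 11 and the PI3K list 0 of 11. The PI3K list had 2 at an unadjusted p under 0.05 by edgeR and 0 by DESeq2. List medians were 0.29, 0.02, -0.18, -0.10, -0.04 and 0.03 in that order, and that of all genes was -0.00.

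Among the insulin-raised genes, Mlxipl, the carbohydrate-response factor ChREBP, was lower in KO females (128 ± 3.77 against 235 ± 22.7 CPM, -0.87), as was Me1, malic enzyme (270.4 ± 51.6 against 449 ± 58.5 CPM, -0.73), while Thrsp, a lipogenic gene, was higher (317 ± 200.3 against 125 ± 43.7 CPM, 1.35; SD, n = 3 each). The groups overlapped for Thrsp, with KOF mice at 272, 536 and 143 CPM, and DESeq2 did not call it (adjusted p = 0.159).

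Of the FOXO list, Gabarapl1 was lower in KO females, at 643, 452 and 551 CPM in KOF and 1436, 1239 and 1435 in KOM (-1.31, SE 0.17, adjusted p = 0.000125 by edgeR). Cat, the antioxidant enzyme catalase, was lower too (791 ± 36.9 against 1392 ± 77.5 CPM, -0.81). Gadd45a (1.61), Sesn1 (0.92), Ppargc1a (0.85) and Txnip, an inhibitor of glucose uptake (0.85), were higher in KO females. The list thus held calls in both directions. Crebbp, a histone acetylase that FOXO factors recruit, was the seventh call of that list and lies outside the rule for named genes (-0.68, SE 0.19, adjusted p = 0.0324). In the other lists Sgk2, a kinase related to AKT, was lower in KO females at 98, 68.5 and 82.5 CPM in KOF and 247, 233 and 183 in KOM (-1.40, SE 0.18, adjusted p = 0.000133 by edgeR). So was Deptor, an mTOR inhibitor (65.6 ± 8.5 against 97.5 ± 8.28 CPM, -0.56). Enpp1, an inhibitor of the insulin receptor (36.4 ± 5.79 against 20.7 ± 4.48 CPM, 0.83), and Igfbp7, a further binding protein (59.4 ± 12.2 against 36.3 ± 9.13 CPM, 0.73), were higher (SD, n = 3 each). The Kupffer and endothelial marker sums and Alas2 did not overlap between these groups either. Their part in the values of the pathway genes was not tested. Gabarapl1, Sgk2, Mlxipl and Cat were called in each of the 6 edgeR fits that left out 1 mouse. Sesn1 and Txnip were called in 4 of these fits, and Me1, Enpp1 and Ppargc1a in 3. Gadd45a and Thrsp were called in 2, Igfbp7 in 1 and Deptor in 0. DESeq2 did not call Sesn1 (adjusted p = 0.0514), Enpp1 (0.0514) or Igfbp7 (0.0617) with all mice. Gadd45a was not called by limma-voom (adjusted p = 0.0528). Whether these sex differences differed from those of wild type mice is given by the comparison of the sexes' responses, in which edgeR called none of them and DESeq2 called Sesn1 and Gadd45a.

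**Figure D4:**
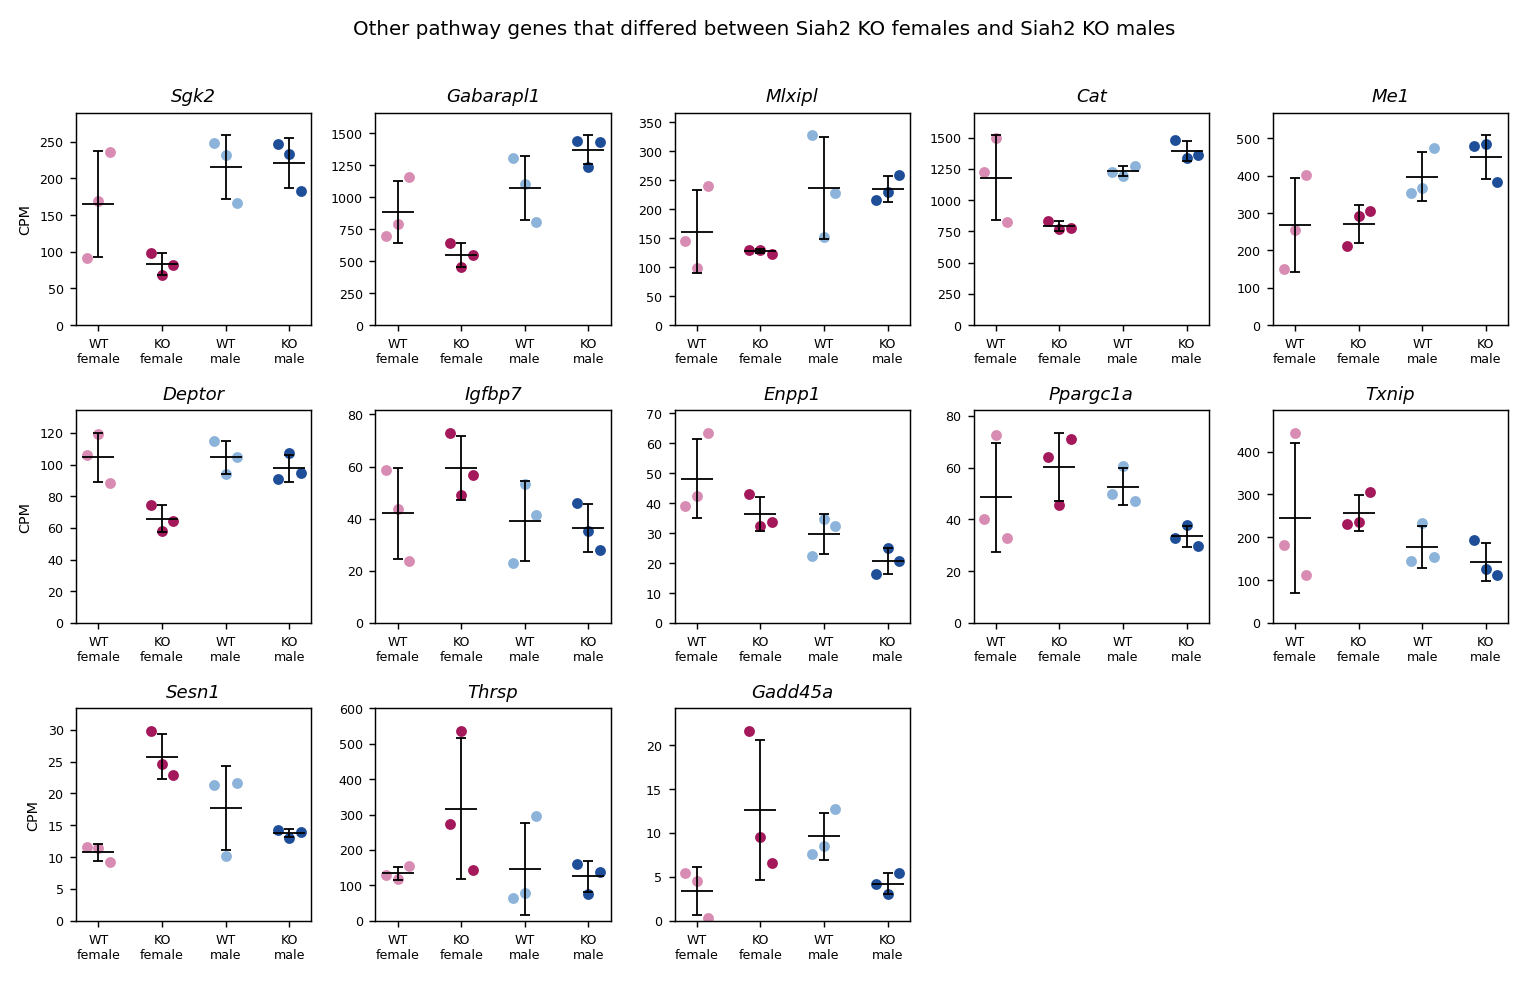
Level in CPM of 13 named pathway genes called between KO females and KO males, in every mouse of the 4 groups (points) with group mean and SD (bars), each panel on its own linear axis from 0. Gabarapl1 lay at 452 to 643 CPM in KO females and 1239 to 1436 CPM in KO males, and Sgk2 at 68.5 to 98 and 183 to 247 CPM.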

How the data were processed

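Liver RNA of 12 mice was profiled with the QuantSeq 3′ kit. The authors trimmed, aligned and counted the reads on BaseSpace, Illumina's cloud service, and the submitters' processing notes name STAR, DESeq and mm10 without versions. The deposited tables, 1 per sex, hold raw, unnormalized counts per gene symbol, with 1 column per mouse, matched by mouse number. Molecular identifiers were not used, so counting limits describe counting error alone. Total counts were 1293688 to 4056144 per mouse.

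The members, gene lists and marker lists were chosen with earlier results of these data known. Siah2 KO was compared with wild type within each sex, both effects with each other, and the sexes within each genotype. The main test was the two-sided quasi-likelihood F test of edgeR 4.0.16 after filterByExpr and TMM (R 4.3.3), adjusted by Benjamini-Hochberg over all genes tested, with a threshold of 0.05. Only the groups compared entered a fit, except for the difference between the sexes. The p-values measure the spread between these samples. The alternatives were DESeq2 1.42.0 (the kind of test the study used), limma-voom (limma 3.58.1) and RLE scaling. Further ones were a filter keeping every gene with at least 1 count in total and a filter of 10 counts in each library. Others were libraries thinned to equal depth, removal of Rn45s (5.68 to 17.9% of counts), all 12 mice in 1 fit, and leaving out each mouse. The edgeR step was tested on simulated counts. Named pathway genes were those called in each list and comparison (up to 6 by size) and the 5 with the smallest p under 0.05 in a comparison, and some that meet this rule are not reported here. Gene positions and promoters came from RefSeq tables of GRCm38.p6, the assembly behind mm10.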

Additional observations from a re-analysis of the deposited data

How the results depend on the processing

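With 3 mice per group the counts of called genes moved widely, and calls near the threshold are not firm. No paired analysis was possible because the mice of the groups compared share no replicate number. Over all alternatives, 1374 of the values of single genes kept both direction and side of the threshold, 94 lost a call, 68 gained one and 79 changed sign. Irs2 and Foxo3 were limited by depth, since 3 counts were worth up to 2.29 CPM. Where a value below differs from the reported one, the cause was not tested.

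The number of members called became 1 in females with the filter keeping every gene with at least 1 count in total (Igfbp1). Between wild type sexes it became 1 under that filter (Igfbp1) and with all 12 mice in the fit (Irs1). Between the KO sexes it became 0 with all 12 mice in the fit. Leaving out 1 mouse gave 0 to 1 members in females, 0 to 1 between wild type sexes and 0 to 1 between the KO sexes.

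The number of other pathway genes called in females, 0 in the reported test, was 4 by DESeq2, 11 with the looser filter and 4 with all 12 mice, and 0 to 10 when 1 mouse was left out, the highest without WTF mouse 1091. In males it was 1 with the looser filter and 0 to 1 without 1 mouse. For the difference between the sexes it was 2 by DESeq2, 7 with the looser filter and 0 to 8 without 1 mouse. Between wild type sexes it was 2 by DESeq2, 8 with the looser filter, 3 with all 12 mice and 0 to 8 without 1 mouse. Between the KO sexes, where 15 were called, it was 4 with all 12 mice and 6 to 18 without 1 mouse.

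Of all genes, 0 were called in females, against 301 by DESeq2, 484 with the looser filter, 427 with all 12 mice and 0 to 936 without 1 mouse. In males the count of 0 became 6 by DESeq2, 29 with the looser filter and 0 to 17 without 1 mouse. For the difference between the sexes the 25 became 265 by DESeq2, 325 with the looser filter, 15 with thinned libraries and 0 to 644 without 1 mouse. Between wild type sexes the 130 became 338 by DESeq2, 536 with the looser filter, 50 with at least 10 counts in every library, 505 with all 12 mice and 43 to 740 without 1 mouse. Between the KO sexes the 1044 became 352 with all 12 mice and 486 to 1056 without 1 mouse.

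Sign changes outside the leave-out fits concerned log2 fold changes near 0. In females thinned libraries gave -0.05 for Insr, -0.08 for Akt1 and 0.09 for Foxo1, and limma-voom 0.02 for Foxo1. The difference between the sexes for Irs2 was 0.13 by limma-voom. Between wild type sexes Insr was 0.02 with at least 10 counts in every library and 0.10 with thinned libraries, and Akt1 was -0.03 by DESeq2 and by RLE scaling, -0.00 with the looser filter and -0.04 with all 12 mice. Between the KO sexes Irs1 was 0.02 with thinned libraries.

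Leaving out 1 mouse, with edgeR or DESeq2, turned the sign of these log2 values. In females the ranges were -0.98 to 0.34 for Irs2, -0.07 to 0.22 for Akt1, -0.76 to 0.13 for Akt2, -0.26 to 0.29 for Foxo1 and -1.49 to 0.05 for Igfbp1. In males they were -0.17 to 0.01 for Insr, -0.06 to 0.38 for Akt1, -0.16 to 0.00 for Akt2, -0.24 to 0.03 for Foxo1 and -0.54 to 0.06 for Igfbp2. For the difference between the sexes they were -0.94 to 0.48 for Irs2, -0.32 to 0.16 for Akt1, -0.74 to 0.19 for Akt2, -0.13 to 0.41 for Foxo1 and -0.99 to 0.54 for Igfbp1. Between wild type sexes they were -0.14 to 0.05 for Insr, -0.31 to 0.16 for Akt1, -0.03 to 0.91 for Akt2 and -0.15 to 0.40 for Foxo1. Between the KO sexes they were -0.23 to 0.17 for Irs1, -0.31 to 0.00 for Akt1 and -0.11 to 0.22 for Igfbp2.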
